A study of Mus musculus with 8 samples.

Results

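Lpl, Gpihbp1, Angptl4 and Lmf1, the 4 genes of the lipoprotein lipase axis, were followed across cell classes, 2 diets and 2 tissues in single-cell RNA-seq of sorted mouse cells. They were chosen by symbol, matched between the 2 runs of the study by gene identifier, and are 4 of the 30406 genes listed in both runs. Every library came from male mice homozygous for ROSA26-eYFP and carrying Cdh5-CreERT2, a tamoxifen-activated Cre driven by an endothelial cadherin promoter. The mice ate tamoxifen diet for 2 weeks from 6 weeks of age. From 8 weeks of age they were kept for 12 to 13 weeks on normal chow, with 5.8% fat, or on a diet with 60% fat, called the high fat diet here. YFP+ cells were sorted from the mesentery or the epididymal adipose tissue of 6 pooled mice per library. The 4 groups (chow mesentery, high fat mesentery, chow adipose, high fat adipose) therefore had 2 libraries each, 1 from each of 2 runs of the experiment, called run A and run B here. The runs were taken from the letters A and B of the sample titles. The study compared the diets within each tissue. A p-value measures the spread between such pools and not between mice.

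Lipoprotein lipase, encoded by Lpl, is the enzyme that frees fatty acids from the triglycerides of circulating lipoproteins. It is made mainly by parenchymal cells such as adipocytes and muscle cells, and by macrophages. Lmf1 encodes a chaperone of the endoplasmic reticulum that the lipase needs to fold. Gpihbp1 encodes a glycolipid-anchored protein of capillary endothelial cells that binds the lipase beneath the endothelium and carries it to the luminal face. Angptl4 encodes a secreted protein that inactivates the lipase, and it is known as a gene that responds to fatty acids. On GRCm38 (mm10) with the GENCODE M21 annotation, Lpl (ENSMUSG00000015568) lies on chromosome 8 at 68880491 to 68907448, plus strand. Gpihbp1 (ENSMUSG00000022579) lies on chromosome 15 at 75596628 to 75599481, plus strand. Both other genes lie on chromosome 17: Lmf1 (ENSMUSG00000002279) at 25579085 to 25662826, plus strand, and Angptl4 (ENSMUSG00000002289) at 33773750 to 33781830, minus strand. No other annotated gene overlaps any of the 4.

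Run B was the deeper run, with 18829960 to 36779289 unique molecular identifiers (UMIs) per library against 3461360 to 6714473 in run A. After filtering, 23207 cells were used, of which 16910 lay in endothelial clusters. The marker-based classes held 5212 capillary-like, 3021 venous-like, 2540 arterial-like and 2438 lymphatic-like cells. Although the cells were sorted for YFP, clusters that expressed macrophage (735 cells), adipocyte (636), fibroblast (623), T cell (416) and B cell (366) markers were also present. The capillary-like class was thin in run A, with 31 to 142 cells per library against 782 to 2108 in run B. Levels below are CPM (counts scaled to a total of 1000000 in the class and library) of the counts summed over a class in 1 library, with the SD over libraries. They are counts of transcript ends with no length term, so they are compared between cells and groups for 1 gene at a time. The classes came from clustering the same cells, so differences between classes are described by how many libraries kept an order, with no test. The 4 genes were left out of the clustering.

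Among endothelial cells, Lpl was highest in the capillary-like class. Its level there was 461 ± 350 CPM (SD, n = 8 libraries), with a lowest value of 50.2, a median of 498 and a highest of 870 CPM. The capillary-like level was above the arterial-like level (131 ± 154 CPM, n = 8) and the venous-like level (83.5 ± 88.4 CPM, n = 8) in 8 of 8 libraries. It was above the lymphatic-like level (94.1 ± 65.6 CPM, n = 8) in 7 of 8 libraries. Arterial-like, venous-like and lymphatic-like cells overlapped, and arterial-like exceeded lymphatic-like in only 4 of 8 libraries. The 2 runs stood far apart for this gene. Capillary-like Lpl in run A was 50.2 CPM in chow mesentery, 102 in high fat mesentery, 85.3 in chow adipose and 388 in high fat adipose. The same groups in run B gave 839, 608, 870 and 747 CPM. The run A values rest on 3, 7, 11 and 100 counts, so the SD over libraries mostly measures the difference between runs.

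Lpl was higher in adipocyte-like and macrophage-like cells than in any endothelial class. Adipocyte-like cells gave 3298 CPM in chow mesentery and 5369 CPM in chow adipose, both from run B. Macrophage-like cells, measured in the 4 run B libraries, gave 2557 ± 944 CPM (SD, n = 4). That was above the capillary-like cells of the same library in 4 of 4 cases, by 1.4 to 4.93 times. Fibroblast-like cells gave 576 ± 418 CPM (n = 8). They lay below capillary-like cells in the chow libraries of run B, at 270 and 354 against 839 and 870 CPM, and above them in the other libraries. T cell-like and B cell-like cells, classes not known for making the lipase, gave 8.63 ± 15.6 CPM (n = 7) and 2.58 ± 5.15 CPM (n = 4).

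**Figure D1:**
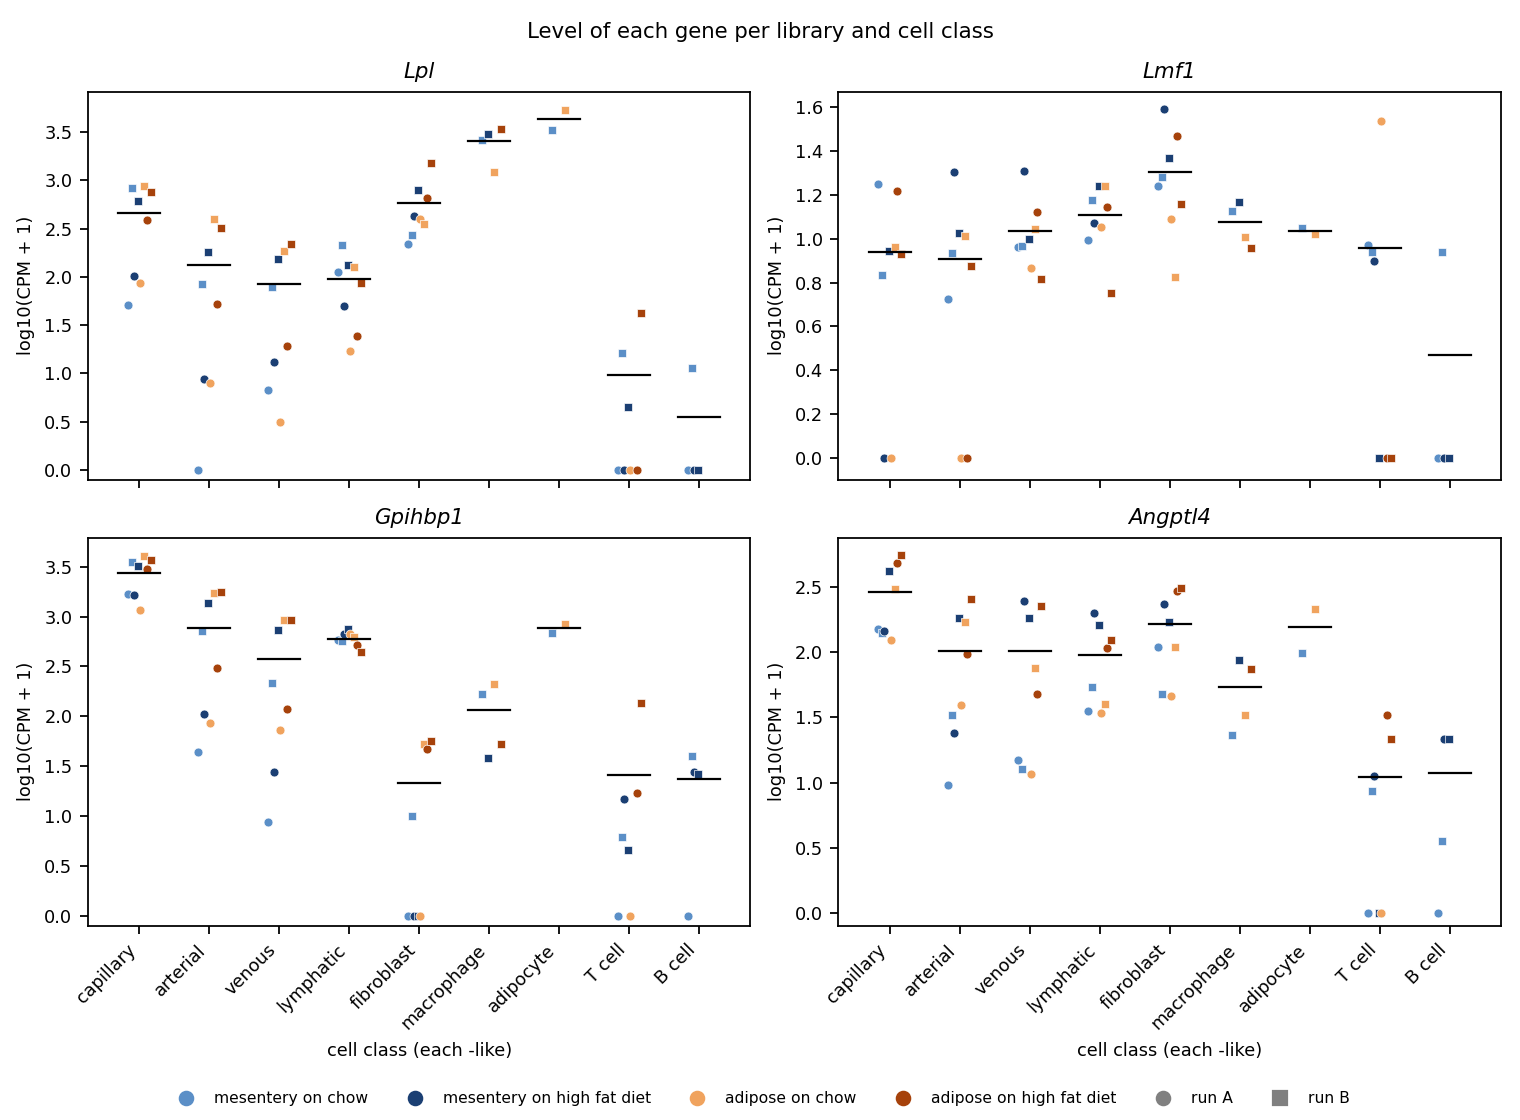
Level of each of the 4 genes as log10(CPM + 1) on the vertical axis, by cell class on the horizontal axis. Each point is 1 library, coloured by group, with a separate marker for each run. Gpihbp1 stands highest in the capillary-like class, Lpl reaches its highest values in adipocyte-like and macrophage-like cells, and Lmf1 lies low in every class.

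Counts of adipocyte genes moved with Lpl in part of the endothelial data. The 10 adipocyte markers (Adipoq, Cfd, Car3, Plin1 and others) summed to 3602 CPM in capillary-like cells of the chow mesentery library of run B and to 3937 CPM in that of chow adipose. The other 6 libraries gave 0 to 239 CPM, and in the high fat mesentery library of run A none of the 10 was detected. Capillary-like Lpl in the high fat libraries of run B was 608 and 747 CPM, while the marker sums there were 239 and 76.5 CPM. In adipocyte-like cells, 1.26 and 1.99 Lpl counts were found per Adipoq count. In cluster 3, the capillary-like cluster that held most of the high fat cells of run B, the same ratio in run B was 10.4 on chow and 46.8 on high fat diet in mesentery, and 13.1 and 208 in adipose. In cluster 1, which held most of the chow cells of run B, it was 4.09 and 9.37 in mesentery and 4.78 on chow in adipose, where the high fat library had 365 Lpl counts on 3 Adipoq counts. The ratio therefore differed both between the clusters and between the diets within a cluster. Sums of 8 macrophage markers in capillary-like cells were 7.75 to 104 CPM, against Lpl of 50.2 to 870 CPM. The part of RNA from adipocytes or macrophages in the endothelial Lpl level was not tested.

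**Figure D2:**
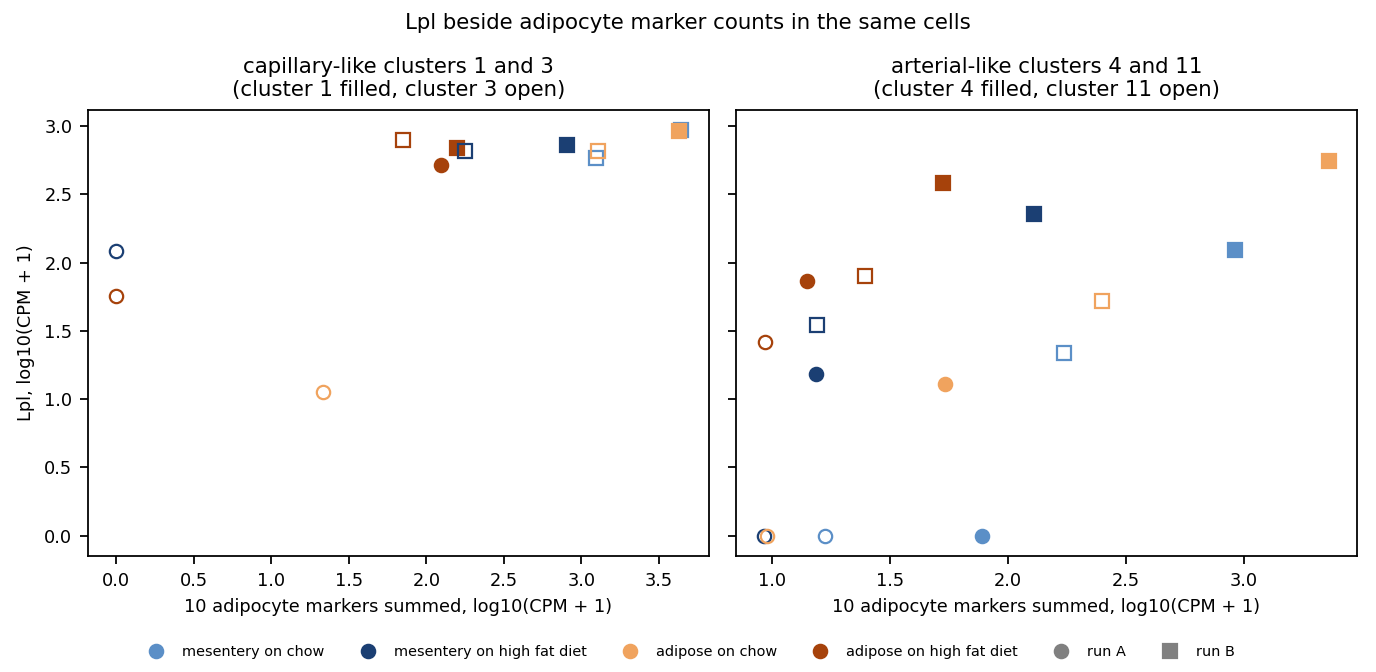
Lpl as log10(CPM + 1) on the vertical axis against the summed level of 10 adipocyte markers, log10(CPM + 1), on the horizontal axis. Each point is 1 library in 1 cluster (capillary-like clusters 1 and 3 on the left, arterial-like clusters 4 and 11 on the right), coloured by group, with a marker for each run. In cluster 3 the chow libraries of run B lie at marker sums of 1236 and 1277 CPM, and the high fat libraries of run B reach similar Lpl at 177 and 69.5 CPM.

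Lmf1 was low across cells. Over all endothelial cells its level was 9.47 ± 2.58 CPM (SD, n = 8), from 6.47 to 14.8 CPM. Class means lay between 7.08 CPM in arterial-like and 11.8 CPM in lymphatic-like cells. Adipocyte-like cells gave 10.2 and 9.48 CPM, and fibroblast-like cells 19.2 ± 10.3 CPM (n = 8). T cell-like cells gave 8.03 ± 11.8 CPM (n = 7), so no endothelial class stood apart from them. All endothelial cells together held only 652 Lmf1 counts, and differences between classes were not tested.

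Gpihbp1, the endothelial carrier of the lipase, was also highest in capillary-like cells. The level there was 2742 ± 1096 CPM (SD, n = 8), from 1155 to 4089 CPM with a median of 3089. It exceeded the arterial-like (762 ± 745 CPM), venous-like (377 ± 409 CPM) and lymphatic-like (602 ± 96.2 CPM) levels in 8 of 8 libraries. Arterial-like cells were above venous-like cells in 8 of 8 libraries, while arterial-like and lymphatic-like cells changed places (4 of 8). Gpihbp1 in lymphatic-like cells was nearly the same in both runs. Run A gave 583, 672, 674 and 522 CPM for chow mesentery, high fat mesentery, chow adipose and high fat adipose, and run B gave 566, 741, 616 and 438 CPM. In arterial-like cells the runs differed widely, with 43.2 to 301.5 CPM in run A and 724 to 1750 CPM in run B. T cell-like and B cell-like cells gave 24.8 ± 49.0 and 22.7 ± 16.3 CPM.

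Clusters inside a class differed as well. Of the arterial-like clusters, cluster 4 (led by Col8a1, Hey1 and Alpl) held Gpihbp1 at 1010 ± 904 CPM (SD, n = 8), against 180 ± 206 CPM in cluster 11 (led by Gkn3, Igf2 and Gja5). Cluster 4 was higher in 8 of 8 libraries. Lpl was higher in cluster 4 in 7 of 8 libraries and Angptl4 in 8 of 8. In run A these orders rest on few counts. Lpl had 0 to 11 counts per run A library in cluster 4 and 0 to 3 in cluster 11, with 0 in both in chow mesentery. Angptl4 had 2 to 26 counts per run A library in the whole arterial-like class. Of the venous-like clusters, cluster 7 (led by Cysltr1 and Ackr1) gave 29.0 to 1750 CPM of Gpihbp1, whereas cluster 6 (led by Adgrg6 and Selp) gave 29.6 ± 30.2 CPM (n = 6), about the level in T and B cell-like cells. Cluster 7 was higher in 6 of 6 libraries. An endothelial cluster that was left unnamed, cluster 18 (led by Klk10 and Cytl1), gave 5.82 ± 5.48 CPM (n = 6), below the means of T and B cell-like cells.

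The 2 lymphatic-like clusters held Lpl and Gpihbp1 in opposite order. Cluster 5, led by Reln, Ccl21a, Mmrn1 and Lyve1, gave Gpihbp1 at 764 ± 146 CPM (SD, n = 8), against 198 ± 58.5 CPM in cluster 12, led by Nts, Ackr4, Foxp2 and Cldn11. For Lpl the order turned, with 47.6 ± 34.9 CPM in cluster 5 and 197 ± 101 CPM in cluster 12. Both orders held in 8 of 8 libraries, with Gpihbp1 2.49 to 5.73 times higher in cluster 5 and Lpl 2.21 to 13.2 times higher in cluster 12. In cluster 12, Lpl in run A was 303, 149, 71.7 and 95.6 CPM for chow mesentery, high fat mesentery, chow adipose and high fat adipose. Run B gave 346, 245, 242 and 127 CPM in the same groups. Macrophage marker sums in lymphatic-like cells as a whole were 91.3 to 251 CPM, and their part in the Lpl level was not tested.

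**Figure D3:**
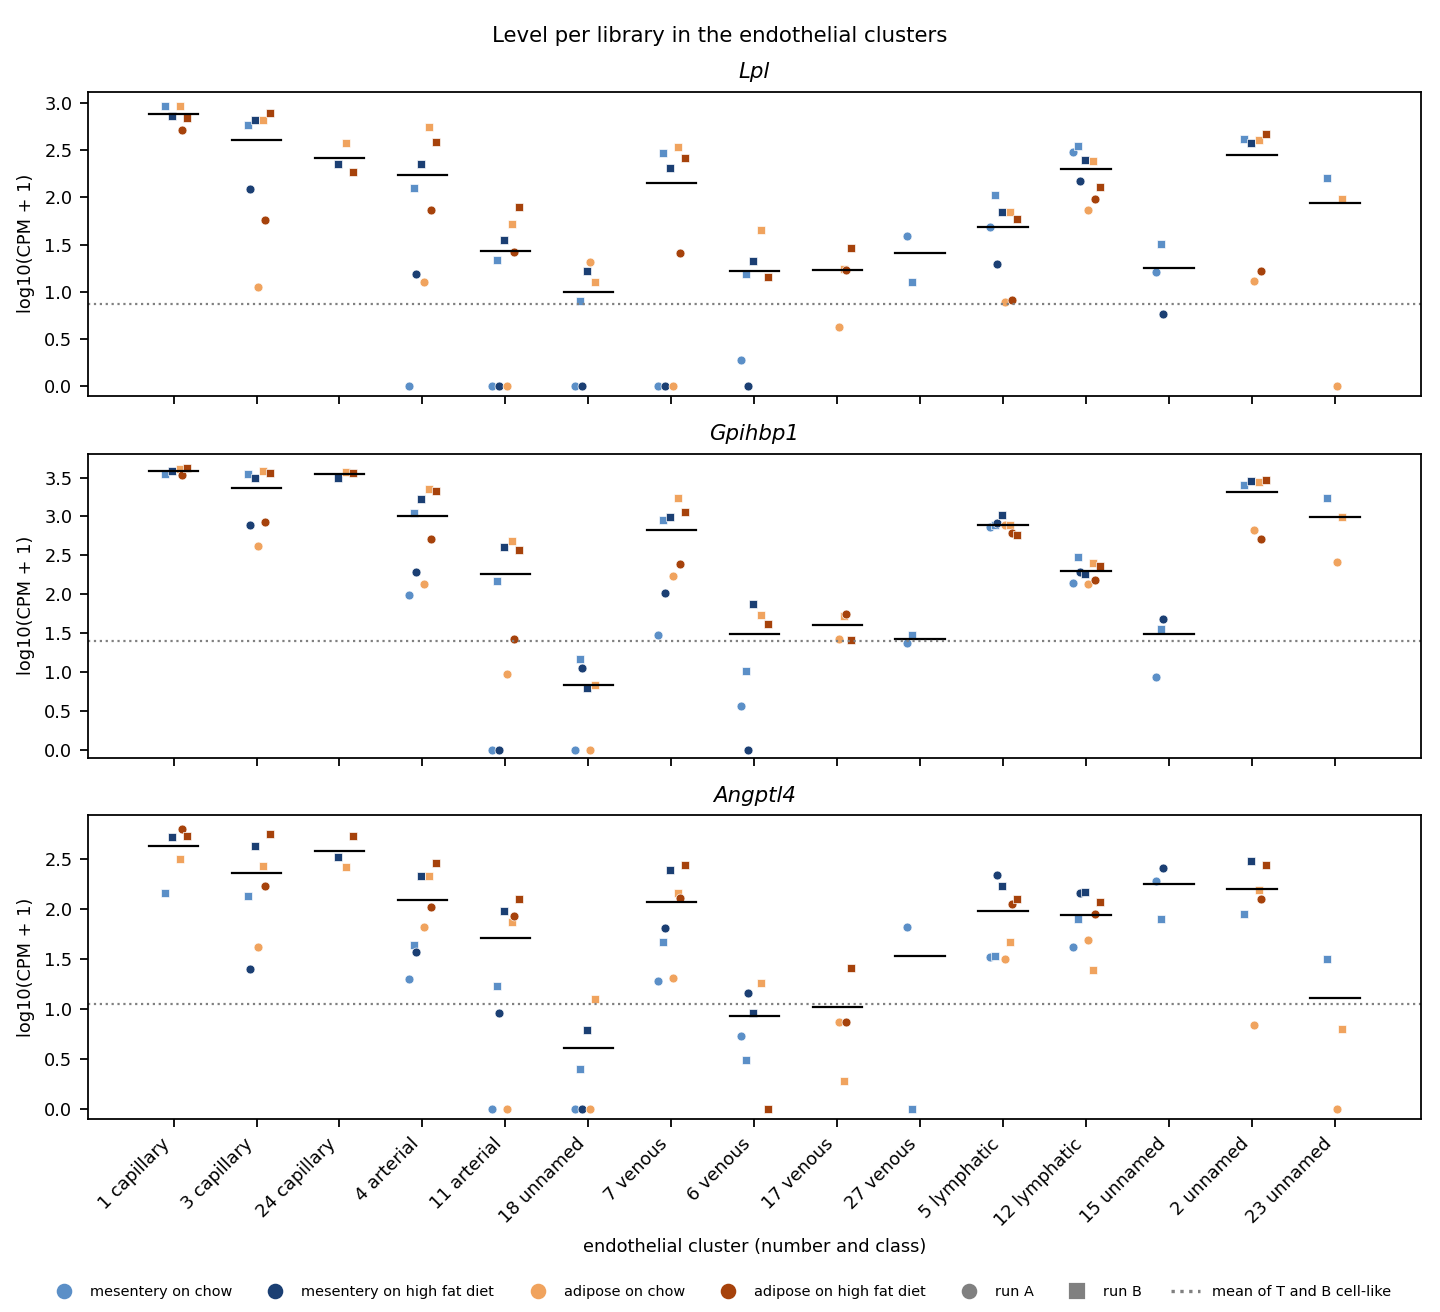
Lpl, Gpihbp1 and Angptl4 as log10(CPM + 1) on the vertical axis in each endothelial cluster on the horizontal axis. Points are libraries, coloured by group with a marker for each run, and the dotted line is the mean of T and B cell-like cells. Gpihbp1 is high in clusters 1, 3 and 4 and near the dotted line in clusters 6 and 18, and clusters 5 and 12 show Lpl and Gpihbp1 in opposite order.

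Angptl4, the inhibitor, was also highest among endothelial classes in capillary-like cells. Capillary-like cells gave 292 ± 177 CPM (SD, n = 8), from 124 to 556 CPM with a median of 229. Venous-like (102 ± 101 CPM), arterial-like (101 ± 92.0 CPM) and lymphatic-like cells (94.2 ± 64.2 CPM) did not differ beyond their spread. Capillary-like cells were above arterial-like cells in 8 of 8 libraries, and above venous-like and lymphatic-like cells in 7 of 8 each. Fibroblast-like cells gave 165 ± 106 CPM (n = 8), macrophage-like cells 53.6 ± 31.1 CPM (n = 4), and T and B cell-like cells 10.1 ± 12.3 and 10.9 ± 11.2 CPM.

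Shares of cells with at least 1 UMI were compared after each cell was thinned to 1000 UMIs, with exact binomial 95% intervals that cover counting error only. Gpihbp1 was found in 94.5% (93.8 to 95.1%) of 5075 capillary-like cells and in 46.6% (44.6 to 48.7%) of 2348 arterial-like cells. Lpl was found in 46.4% (45.04 to 47.81%) of capillary-like and 14.2% (12.8 to 15.7%) of arterial-like cells. Angptl4 was found in 26.4% (25.2 to 27.6%) and 11.5% (10.3 to 12.9%). T cell-like cells, which should lack these genes, gave 1.29% for Gpihbp1, 0.517% for Lpl and 0.775% for Angptl4 of 387 cells. Shallower cells were left out (137 capillary-like, 192 arterial-like and 29 T cell-like). Not thinned, the capillary-like shares were 97.6% for Gpihbp1, 80.6% for Lpl and 64.8% for Angptl4, and the arterial-like shares 58.0%, 31.7% and 30.3%. Cells were pooled over libraries here, mostly from run B.

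In arterial-like cells Lpl was found more often in cells that also had Gpihbp1. After thinning, Lpl was found in 25.5% of the 1095 arterial-like cells with Gpihbp1 and in 4.31% of the 1253 cells without it. Each run B library showed this order, with 12.3% against 3.45% in chow mesentery and 18.5% against 3.55% in high fat mesentery. Chow adipose gave 35.5% against 7.73%, and high fat adipose 26.9% against 9.55%. Venous-like cells pooled over libraries showed the same order, at 27.3% against 2.67%, over clusters that also differed in Gpihbp1. Pooled capillary-like cells gave 47.1% against 34.6%, but 45.4% against 64.3% in run B chow mesentery. In pooled lymphatic-like cells the order was the other way, at 5.86% against 8.07%. The chow adipose libraries went against this, at 0.985% against 0.823% in run A and 11.3% against 6.59% in run B. Chow mesentery of run A was nearly even, at 7.55% against 7.69%.

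Whether a high fat diet changed the 4 genes was tested on counts summed per library, with edgeR's quasi-likelihood test over all genes and Benjamini-Hochberg adjustment. For each tissue and run, the high fat library was compared with the chow library of the same run in the 4 named endothelial classes. The classes are parts of the same libraries, so the 8 pairs of a tissue rest on 1 pair of libraries per run. They are not independent. Angptl4 was higher on high fat diet in 7 of 8 such pairs in mesentery and in 8 of 8 in adipose. The exception was capillary-like cells of run A mesentery, at 151 and 146 CPM on 9 and 10 counts. Lmf1 was higher in 7 of 8 pairs in mesentery and 3 of 8 in adipose, and none of its changes passed. Lpl was higher in 5 of 8 pairs in each tissue, and Gpihbp1 in 6 of 8 and 5 of 8. Without a term for the run, none of the 4 genes passed an adjusted p of 0.05 in any of 25 comparisons (5 sets of cells by 5 contrasts). There, 5 of 95 member tests had an unadjusted p under 0.05, and 0% of all genes were called in each comparison. DESeq2 called 2 of the 95 and limma-voom 0, where they called at most 88 and 1 of all genes in a comparison. The letters A and B of the labels were taken as repeats of the experiment, and libraries of 1 run deviated together. The run was therefore also fitted as a block. With the block, 10 of the 95 passed, and the calls below are from that fit. The 6 calls for diet among them were all of Angptl4. Where 1 library is left out below, its group keeps 1 library, which is assumed to vary like the other groups. The fits in lymphatic-like and venous-like cells were added after the levels had been seen.

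In lymphatic-like cells Angptl4 rose on high fat diet in both tissues. In mesentery it went from 34.3 to 200 CPM in run A and from 53.5 to 162 CPM in run B. In adipose it went from 33.4 to 108 CPM in run A and from 39.2 to 123 CPM in run B. The groups did not overlap in either tissue. The fitted log2 change in mesentery was 2.01 ± 0.24 (SE, edgeR adjusted p = 3.35e-05), where 2.65% of all genes were called. In adipose it was 1.68 ± 0.27 (adjusted p = 0.0187), where 0.0909% of all genes were called. Without the block the changes were 2.02 ± 0.30 (adjusted p = 0.35) and 1.68 ± 0.31 (adjusted p = 0.999). The rise was seen in both lymphatic-like clusters. Cluster 5 went from 32.1 to 216 CPM and from 32.9 to 170 CPM in mesentery, and cluster 12 from 41.0 to 145.5 CPM and from 78.6 to 147 CPM. The adipose call was lost when the run B chow adipose library (adjusted p = 0.109), the run A high fat adipose library (0.0781) or the run B high fat adipose library (0.356) was left out. The 10 adipocyte markers in these cells went from 20.3 on chow to 2.89 CPM on high fat diet in run A mesentery and from 167 to 10.5 CPM in run B. In adipose their sum went from 3.45 to 1.18 CPM in run A and from 138 to 3.48 CPM in run B, so it was lower on high fat diet in each of the 4 pairs.

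**Figure D4:**
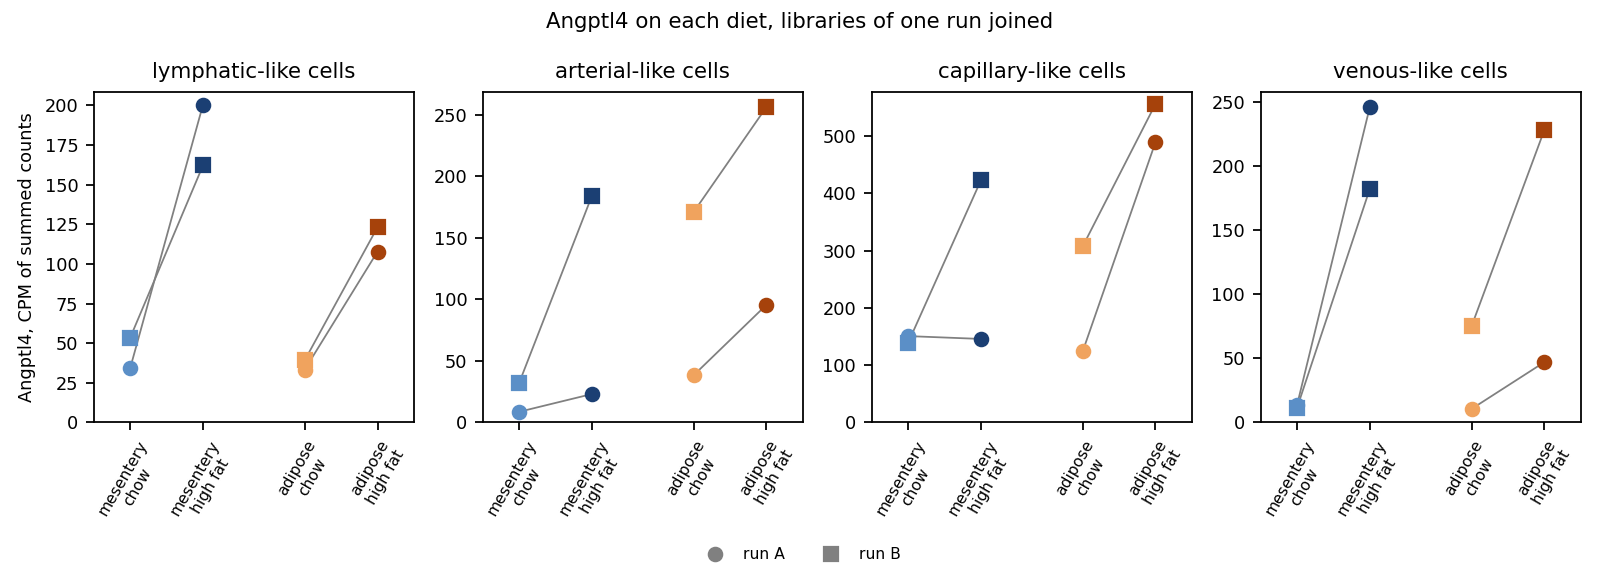
Angptl4 in CPM of summed counts on the vertical axis, from 0, by tissue and diet on the horizontal axis, in one panel per endothelial class. Points are libraries, lines join the libraries of 1 run, and the markers tell the runs apart. The line rises from chow to high fat diet in 15 of 16 cases, the exception being capillary-like cells of run A mesentery. The panels show classes of the same libraries, so the lines are not independent.

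Arterial-like Angptl4 was higher on high fat diet in both tissues, and the difference passed the test in mesentery. Mesentery levels went from 8.64 to 23.1 CPM in run A and from 32.2 to 184 CPM in run B. The run A pair rests on 2 and 6 counts. The log2 change in mesentery was 2.34 ± 0.33 (SE, adjusted p = 0.000206, 0.649% of all genes called). In adipose, levels went from 38.4 to 95.6 CPM and from 171 to 256 CPM, and the change of 0.81 ± 0.27 did not pass (adjusted p = 0.728, 0.358% of all genes called). The mesentery call was lost without the run B chow library (2.27, adjusted p = 0.488) or the run B high fat library (1.21, adjusted p = 0.937). The difference between the tissues in the response, 1.53 ± 0.42, did not pass (adjusted p = 0.656).

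In capillary-like cells Angptl4 went from 139 to 422.5 CPM in run B mesentery. In adipose it went from 124 to 489 CPM in run A and from 307 to 556 CPM in run B. The log2 change was 1.26 ± 0.35 in mesentery (SE, adjusted p = 0.0317, 0.882% of all genes called) and 1.41 ± 0.31 in adipose (adjusted p = 0.000866, 1.15% called). Different clusters held most of the class on the 2 diets. In run B, cluster 1 held 67.9% and 85.0% of the chow cells, and cluster 3 held 81.4% and 87.1% of the high fat cells of mesentery and adipose. Within cluster 3, run B gave 135 against 422 CPM in mesentery and 267 against 558 CPM in adipose. Within cluster 1, run B gave 142 against 520 CPM and 313 against 538.5 CPM. Neither call held under DESeq2 with the block (adjusted p = 1 and 0.902) or limma-voom with the block (adjusted p = 1 in both). The mesentery call was also lost without the run B chow mesentery, high fat mesentery or chow adipose library, and the adipose call in 5 of 8 fits that left out 1 library.

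Venous-like Angptl4 gave the largest log2 change of the 4 classes in mesentery, 4.13 ± 0.57 (SE, adjusted p = 0.00882, 0.17% of all genes called). Levels went from 13.9 to 246 CPM in run A and from 11.6 to 182 CPM in run B. In run A, 95 of the 102 high fat counts came from 19 cells of the small cluster 27, led by Glycam1 and Madcam1, genes of high endothelial venules, and 1 cell held 35 of them. Without cluster 27 the run A levels were 5.86 and 29.6 CPM, on 15 and 7 counts. The change was then 3.36 ± 0.35 (adjusted p = 0.000135). The venous clusters differed between the diets too, with cluster 6 holding 80.3% and 69.8% of the chow mesentery cells and cluster 7 72.9% of the high fat cells of run B. Within cluster 7, Angptl4 went from 18.1 to 63.9 CPM in run A, on 5 counts each, and from 45.6 to 245 CPM in run B. The change in cluster 7 alone was 2.34 ± 0.37 (adjusted p = 0.00174). In adipose the venous-like change was 1.60 ± 0.53 (adjusted p = 0.784, 0.085% called), without cluster 27 it was 1.76 ± 0.31 (adjusted p = 0.0262), and without the run A high fat adipose library it was 2.11 (adjusted p = 0.00843).

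Over all endothelial cells Angptl4 went from 34.6 to 182 CPM and from 59.2 to 299 CPM in mesentery, and from 30.8 to 140 CPM and from 243 to 383 CPM in adipose. High fat exceeded chow in each of these 4 pairs, but neither change passed the test. The log2 change was 2.36 ± 0.49 in mesentery (adjusted p = 0.122, 0.0229% of all genes called) and 1.20 ± 0.47 in adipose (adjusted p = 1, 0.00764% called). The mesentery change passed under DESeq2 with the block (adjusted p = 0.000413), but not under limma-voom with it (0.1), and in edgeR only without the run A chow mesentery library (2.87, adjusted p = 0.013). The mix of classes differed between these libraries, with lymphatic-like cells at 26.4% of endothelial cells on chow and 58.7% on high fat diet in run A mesentery and 8.66% and 5.51% in run B, and its part in the change was not tested. The direction was shared by cells outside the endothelium. In fibroblast-like cells Angptl4 went from 109 to 236 CPM and from 47.3 to 171 CPM in mesentery, and from 45.2 to 295 CPM and from 108 to 312 CPM in adipose. In macrophage-like cells of run B it went from 22.4 to 86.8 CPM in mesentery and from 32.3 to 73.01 CPM in adipose. T cell-like cells gave 0 and 7.65 CPM on chow and 10.3 and 0 CPM on high fat diet in mesentery of runs A and B. In adipose they gave 0 CPM on chow in run A, and 32.0 and 20.8 CPM on high fat diet. B cell-like cells of mesentery went from 0 to 20.6 CPM and from 2.58 to 20.5 CPM. The T cell-like and B cell-like values rest on 0 to 7 counts per library. The classes outside the endothelium were not tested.

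With the cell filters and classes described above, edgeR's fits of all 8 libraries gave no diet call for Lpl or Gpihbp1 in either tissue, with or without the block. Arterial-like Lpl and Gpihbp1 in mesentery passed with the block at a mitochondrial limit of 20%, and also without the run B high fat adipose library, as did arterial-like Gpihbp1 in adipose without that library. Other settings under which a result passed are given beside it. Capillary-like Lpl changed by -0.25 ± 0.33 in mesentery (adjusted p = 1) and 0.91 ± 0.32 in adipose (adjusted p = 0.303), and the adipose change passed without the run B high fat adipose library. Its runs disagreed, with high fat above chow in run A and below it in run B in both tissues. Capillary-like Gpihbp1 changed by -0.07 ± 0.31 and 0.72 ± 0.31 (adjusted p = 1 and 0.698). Lpl in lymphatic-like cells of mesentery was below chow in each run on the high fat diet, going from 110.5 to 48.4 CPM and from 214 to 132 CPM, with a change of -0.94 ± 0.27 (adjusted p = 0.0692). It passed without the run B chow mesentery, the run A chow adipose or the run B chow adipose library. Gpihbp1 over all endothelial cells of mesentery was higher on high fat diet, from 135 to 457 CPM and from 1096 to 2155 CPM, with a change of 1.33 ± 0.28 (adjusted p = 0.122). It passed without the run B chow mesentery library (1.67, adjusted p = 0.0363) and under DESeq2 with the block. Venous-like Gpihbp1 in mesentery went from 7.78 to 26.5 CPM and from 214 to 727 CPM, with a change of 1.87 ± 0.35 (adjusted p = 0.0645). That change passed under DESeq2 with the block (adjusted p = 0.0161), without cluster 27 (0.0439) and in 4 of 8 fits that left out 1 library, while in cluster 7 alone it was 0.48 (adjusted p = 1). Capillary-like cells made up 31 of 1285 and 782 of 3464 endothelial cells in the chow mesentery libraries of runs A and B, and 32 of 683 and 958 of 2324 in the high fat ones. Lmf1 was not called in any set of cells, and in arterial-like cells its counts were too low to be tested.

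The tissues differed for 3 of the genes on chow, each in a different class or pair of classes. Lpl and Angptl4 were lower in mesentery than in adipose in arterial-like cells. Lpl was 0 and 82.7 CPM in mesentery of runs A and B against 6.99 and 398 CPM in adipose, on 0 and 2 counts in run A. Taken as mesentery minus adipose, this was a difference on the log2 scale of -2.13 ± 0.36 (SE, adjusted p = 0.00195), where 0.627% of all genes were called. The adipocyte marker sum in these cells was 43.2 and 619 CPM in mesentery against 34.9 and 1658 CPM in adipose, and its part in the difference was not tested. The call was not made by DESeq2 (adjusted p = 1) or limma-voom (0.307) with the block. It was lost without the run B chow mesentery library (adjusted p = 0.324), which leaves a group with 0 Lpl counts, and the sign turned without the run B chow adipose library (0.15). Angptl4 was 8.64 and 32.2 CPM against 38.4 and 171 CPM, a difference of -2.33 ± 0.33 (adjusted p = 0.000254), which was lost without either of those libraries, at -2.26 (adjusted p = 0.44) and -2.18 (0.266). Arterial-like Gpihbp1 differed by -1.09 ± 0.30 (adjusted p = 0.0923) and passed in 4 of 8 fits that left out 1 library.

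Lymphatic-like Lpl went the other way on chow. It was 110.5 and 214 CPM in mesentery against 16.1 and 124 CPM in adipose, which differed by 1.48 ± 0.29 on the log2 scale (SE, adjusted p = 0.00558), where 1.83% of all genes were called. Both lymphatic-like clusters showed the order. Cluster 5 gave 47.2 and 106 CPM against 6.72 and 68.7 CPM, and cluster 12 gave 303 and 346 CPM against 71.7 and 242 CPM. With doublets kept the difference was 0.78 (adjusted p = 0.388), and without the run A chow mesentery library the adjusted p was 0.0558. Venous-like Gpihbp1 was lower in mesentery, at 7.78 and 214 CPM against 71.9 and 921 CPM, a difference of -2.44 ± 0.36 (adjusted p = 0.00246, 1.67% called). The chow mesentery cells of this class lay mostly in cluster 6, where Gpihbp1 was 2.64 and 9.14 CPM. In cluster 7 alone, with 29.0 and 892 CPM against 170 and 1750 CPM, the difference was -1.27 ± 0.36 (adjusted p = 0.35). The venous-like call was also lost without the run B chow adipose library (adjusted p = 0.0931). Over all endothelial cells 0.611% of genes were called, with Gpihbp1 at -1.61 ± 0.28 (adjusted p = 0.0593). That difference did pass with the block under DESeq2 (adjusted p = 4.5e-06) and under limma-voom. Gpihbp1 passed there without either chow mesentery library or without the run A high fat mesentery library. In capillary-like cells 0.339% of genes were called and none of the 4.

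On high fat diet none of the 4 genes differed between the tissues past the threshold in any of the 5 sets of cells when all 8 libraries were fitted, with or without the block. With the block, 0% of all genes were called over all endothelial cells, 0.262% in capillary-like, 0.134% in arterial-like, 0.227% in lymphatic-like and 0.198% in venous-like cells. The difference between the tissues in the diet response gave no call either, with 0%, 0.00969%, 0.056%, 0.102% and 0% of all genes called in the same order. For the tissues on high fat diet, 0 of 19 member tests had an unadjusted p under 0.05 without the block and 10 of 19 with it. For the difference in response the counts were 0 and 7 of 19. DESeq2 and limma-voom, with or without the block, called none in either contrast. Leaving out the run B high fat adipose library, so that high fat adipose was the run A library alone, with 100 capillary-like and 14 arterial-like Lpl counts, brought calls for Lpl in capillary-like (-2.61, adjusted p = 0.000556) and arterial-like cells (-3.65, adjusted p = 0.00233). The same was true of Gpihbp1 in arterial-like (-1.81, adjusted p = 0.00193) and venous-like cells (-1.75, adjusted p = 0.0382), all lower in mesentery. It also brought a call of Lpl for the difference in response in capillary-like cells (-2.50, adjusted p = 0.0354). Without the run B high fat mesentery library the venous-like response of Angptl4 differed by 3.38 (adjusted p = 0.0279).

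Genes whose level was most like that of each member were ranked by Pearson's r of log2(CPM + 1) over 32 sums (4 endothelial classes in 8 libraries) among 6442 genes. Each value was first centred on the mean of the classes in its library. The r therefore describes differences between classes within libraries, and level differences between libraries that all classes share were removed. The sums share libraries, runs and depth, so r is a description. Gpihbp1 lay closest to Col4a1 (r = 0.941), Dysf (0.936) and Col4a2 (0.931), followed by Ablim3 (0.893) and Fscn1 (0.892). Col4a1 and Col4a2 encode the chains of basement membrane collagen. Lpl lay closest to Col4a2 (0.864), Cd300lg (0.858), Col4a1 (0.849), 4930402H24Rik (0.846) and Gpihbp1 (0.845). Angptl4 lay closest to Chchd10 (0.836), Lpl (0.829), Cd300lg (0.817), Fbxl7 (0.812) and Col4a1 (0.802), and gave 0.731 with Gpihbp1. Cd300lg was among the markers used to name the capillary-like class.

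Other genes of the pathway were read from 4 lists. The first held regulators, cofactors and relatives of the lipase, the second held fatty acid uptake genes, and the third PPAR factors and genes known as their targets. The fourth held genes responsive to glucocorticoid, FOXO or hypoxia. Without the block none of the list genes was called by edgeR in any comparison, with an unadjusted p under 0.05 in 24 of 1060 tests. With the block 12 of the 1060 tests called a gene higher and 9 called a gene lower, so a gene could count more than once. The calls below are from that fit. In capillary-like cells of adipose, 0 of 7 tested genes of the first list (18 genes) were called for diet. Of the 14 fatty acid uptake genes, 2 rose and 1 fell, where 1.15% of all genes were called. Fabp5, a fatty acid binding protein, went from 240 to 2577 CPM in run A and from 1753 to 4327 CPM in run B, a log2 change of 2.32 ± 0.32 (SE, edgeR adjusted p = 2.08e-10). Cd36, a fatty acid transporter, went from 551 to 2251 CPM and from 6587 to 7399 CPM, 1.18 ± 0.32 (adjusted p = 0.0242). Dgat2, an enzyme of triglyceride synthesis that adipocytes express, changed by -3.94 on the log2 scale. It went from 75.1 to 3.75 CPM in run B, where the adipocyte marker sum also went from 3937 to 76.5 CPM. In run A Dgat2 went the other way, from 0 to 7.76 CPM. Of 10 tested PPAR genes, Plin2, a lipid droplet coat protein, rose by 1.54 ± 0.31 (adjusted p = 0.000178). Of 10 tested genes of the fourth list, Zbtb16 was called, with a change of -1.81 (adjusted p = 0.0326). It went from 36.8 to 7.18 CPM in run B, but from 7.75 to 19.4 CPM in run A. Fabp5 was also among the genes that led cluster 3. The medians were -0.06, -0.0012 and 0.31 for the first 3 lists and -0.62 for the fourth, against 0.02 over all genes.

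Dgat2 and Zbtb16 were the list genes called of 41 tested in capillary-like cells of mesentery (0.882% of all genes called). Their changes were -2.59 ± 0.46 (edgeR adjusted p = 1.12e-05) and -2.56 ± 0.54 (adjusted p = 0.000515), and the fall was in run B alone. Dgat2 went from 81.2 to 12.9 CPM in run B and was 0 CPM on both diets in run A. Zbtb16 went from 51.1 to 6.80 CPM in run B, but from 0 to 29.1 CPM in run A. The adipocyte marker sum of these cells was also lower on high fat diet in run B. In arterial-like cells of mesentery 4 of 39 were called, and each rose (0.649% of all genes called). Fabp5 changed by 1.35 ± 0.24 (adjusted p = 0.00257), Fabp4 by 0.83 ± 0.20 (0.0468) and Plin2 by 1.23 ± 0.27 (0.0246). Depp1, a FOXO-responsive gene of the fourth list, changed by 2.00 ± 0.34 (adjusted p = 0.00146), from 73.4 to 635 CPM in run A and from 78.9 to 207 CPM in run B. All 10 tested PPAR genes had a positive change there, with a median of 0.36 against -0.0033 over all genes. In arterial-like cells of adipose, where 0.358% of all genes were called, 1 of 39 tested list genes was called, Dgat2, which fell by 2.26 on the log2 scale (adjusted p = 0.0126). The adipocyte marker sum there went from 1658 to 46.5 CPM in run B. In venous-like cells of mesentery, where 0.17% of all genes were called, 1 of 45 was called, Scarb1, a lipoprotein receptor, which rose by 1.39 ± 0.25 (adjusted p = 0.0417), from 81.2 to 164 CPM in run A and from 154 to 468 CPM in run B.

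In lymphatic-like cells, where Angptl4 rose in both tissues, none of the 37 tested list genes was called for diet by edgeR, with an unadjusted p under 0.05 in 6 in mesentery and 4 in adipose. The third list had a median of 0.27 in mesentery and 0.10 in adipose. Plin2 was 48.2 and 29.6 CPM on chow against 52.0 and 38.5 CPM on high fat diet in mesentery. In adipose it went from 39.1 to 50.9 CPM and from 21.5 to 51.1 CPM, a log2 change of 0.77 ± 0.29 that did not pass (edgeR, unadjusted p = 0.0155, adjusted p = 0.835). Pcsk6, a protease of the first list, gave 152 to 355 CPM in this class, against 0 to 15.4 CPM in the other 3. Between the tissues on chow, lymphatic-like Vldlr, Cd36 and Cav1 were higher in mesentery along with Lpl, by 1.71, 1.65 and 0.82 on the log2 scale. In arterial-like cells Fabp4 (-0.93) and Pparg (-1.40) were lower in mesentery and Vegfa (1.47) was higher. Pparg, the PPAR factor best known from adipocytes, was also lower in mesentery in venous-like cells (-2.11, adjusted p = 0.0427).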

How the data were processed

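Cells were processed with 10x 3′ v3.1 chemistry. The authors deposited raw UMI counts per gene and barcode, one matrix per library; the header of each run A matrix gives software version 3.0.2 and that of run B cellranger-5.0.0, and the submitters' processing notes name mm10 and Seurat 4.3.0. No source used here gives further settings. Of 27944 barcodes, 23970 had at least 500 UMIs, 300 genes and at most 10% mitochondrial UMIs. The automatic doublet call marked 45 cells (0.19%), so the cells with the highest doublet scores were removed up to 0.8% per 1000 cells (763 cells, 3.18%). Barcodes over the mitochondrial limit were 20.1 to 29.9% per library in run A and 5.21 to 8.2% in run B. At most 10 barcodes were shared between any of the 28 pairs of libraries. Cells were clustered with scanpy 1.11.5 and leidenalg 0.10.2 (2000 variable genes, 30 components, 20 neighbours, resolution 1.0) without the 4 genes and the first 3 lists. The 28 clusters were named "-like" from marker lists. A class of fewer than 20 cells in a library gave no level there.

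Counts were summed per library and class and tested with edgeR 4.0.16 (quasi-likelihood, TMM, filterByExpr, 4 group means over 8 libraries, adjusted p threshold 0.05). The SE printed with an edgeR change is the absolute log2 change divided by the square root of its F statistic. It is not a separate estimate from the fit. DESeq2 1.42.0 and limma-voom 3.58.1 were alternatives. The test was checked on simulated data with large set changes, no effect of the run, and changed genes without very low counts. That check cannot show how the test performs on low counts or on runs that differ. The main fit has no block. The letters A and B of the sample titles were taken as repeats of the whole experiment, because the labels state that it was repeated. Libraries with the same letter deviated together: over the 6 pairs of groups the correlation of deviations was 0.616 to 0.762 over all endothelial cells, 0.25 to 0.377 in capillary-like, 0.49 to 0.577 in arterial-like, 0.627 to 0.709 in lymphatic-like and 0.547 to 0.683 in venous-like cells. The pairing rests on that reading of the labels, and the block is printed where it changes a call. The named genes were the 4 members and, from each list, the 4 genes of highest level and any that passed. The members and lists were chosen with earlier results of these data known. The fits in lymphatic-like and venous-like cells and within single clusters were chosen after seeing the data.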

Additional observations from a re-analysis of the deposited data

Results flagged for a closer look

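Gpihbp1 in lymphatic-like cells moved in opposite directions with diet in the 2 tissues. It went from 583 to 672 CPM in run A and from 566 to 741 CPM in run B in mesentery. In adipose it went from 674 to 522 CPM in run A and from 616 to 438 CPM in run B. The gene and class were picked because both runs moved one way in mesentery and the other way in adipose. The shared direction of the 4 comparisons within a run was therefore fixed by the choice and is no support. The p-values below come from the same counts. The log2 change was 0.28 ± 0.19 (SE) in mesentery and -0.42 ± 0.19 in adipose with the run as a block, and neither passed the test. The difference between the 2 changes was 0.70 ± 0.40 without the block (edgeR, unadjusted p = 0.121) and 0.70 ± 0.27 with it (unadjusted p = 0.0164, adjusted p = 0.634), so it did not pass over all genes.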

How the results depend on the processing

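Mean levels in the 4 endothelial classes moved by less than 1 SD with doublets kept, with a mitochondrial limit of 20% and at resolution 2.0. That SD mostly measures the difference between runs, and leaving out 1 of 8 libraries cannot move a mean by 1 SD. Shares of cells with a UMI depended on depth: thinned to 2000 UMIs and not thinned, Lpl was found in 67.9% and 80.6% of capillary-like and 24.1% and 31.7% of arterial-like cells, Gpihbp1 in 99.1% and 97.6%, and 59.6% and 58.0%, and Angptl4 in 44.9% and 64.8%, and 20.5% and 30.3%. The count of members called was 0 in each of the 25 comparisons without the block and stayed so in 605 of 740 alternatives. With the replicate block it was 1 for the diet in mesentery in capillary-like, arterial-like, lymphatic-like and venous-like cells, 1 for the diet in adipose in capillary-like and lymphatic-like cells, and for tissue on chow 2 in arterial-like and 1 in lymphatic-like and venous-like cells. The pairing changed no other call. Block and resolution 2.0 gave the same counts, though the classes differed there. At that resolution a cluster of 1213 cells led by Timp4 raised both the capillary and the adipocyte markers. It was named mixed and left out of the endothelial cells. Of its cells, 915 came from run B chow adipose and 206 from run B chow mesentery. Block and a mitochondrial limit of 20% gave 3 in arterial-like cells for diet in mesentery and for tissue on chow and none for capillary-like cells of mesentery. Block and doublets kept gave 3 for arterial-like tissue on chow, and none for capillary-like cells of mesentery and lymphatic-like tissue on chow. Block with DESeq2 gave 2 for diet in mesentery over all endothelial cells and in venous-like cells, 1 for tissue on chow over all endothelial cells, 1 elsewhere in the list above and none in capillary-like cells, and limma-voom differed from it only in giving 0 and 1 for the first 2. Without a filter or block, counts were 1 for diet in mesentery in arterial-like, lymphatic-like and venous-like cells and in adipose in lymphatic-like cells, and 2 for tissue on chow in arterial-like and venous-like cells. DESeq2 without the block gave 1 for diet in mesentery in lymphatic-like and venous-like cells. All genes called in a comparison numbered 0 to 462 for DESeq2 and 0 to 198 for limma-voom with the block. They numbered 0 to 233 for edgeR with the block, 0 to 88 for DESeq2 without it and 0 to 161 without a filter or block. With the filter, 8797 to 13097 genes were tested. With the block, cluster 3 alone gave 1 (diet in mesentery), cluster 4 alone 1 and 2 (diet in mesentery, tissue on chow), cluster 5 alone 1 for diet in mesentery, diet in adipose and tissue on chow, cluster 7 alone 1 (diet in mesentery), and venous-like cells without cluster 27 gave 2, 1 and 2 for diet in mesentery, diet in adipose and tissue on chow.

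Leaving out 1 library gave counts from 0 to 1 for diet in mesentery over all endothelial and capillary-like cells, for diet in adipose in arterial-like, lymphatic-like and venous-like cells, for tissue on chow over all endothelial and lymphatic-like cells, for tissue on high fat diet in capillary-like and venous-like cells, and for the difference in response in capillary-like and venous-like cells. It gave 0 to 2 for diet in mesentery in lymphatic-like and venous-like cells, diet in adipose in capillary-like cells, tissue on chow in venous-like cells and tissue on high fat diet in arterial-like cells, and 0 to 3 for diet in mesentery and tissue on chow in arterial-like cells. Of 446 alternatives to 32 log2 changes with the block, 384 kept direction and side of the threshold. Angptl4 in mesentery stayed past it in lymphatic-like cells (1.68 to 2.43 over left-out libraries) and venous-like cells (3.13 to 5.02) in every alternative with the block. Without the block, leaving out 1 library gave Angptl4 changes of -0.0071 to 3.56 in arterial-like cells of mesentery, -0.076 to 2.17 in arterial-like cells of adipose and -0.0035 to 1.67 in capillary-like cells of mesentery, the sign turning in each without the run B high fat library of that tissue. With the block it turned for arterial-like Lpl on chow between tissues (0.15 without the run B chow adipose library), and for capillary-like Lpl: diet in mesentery (1.55 without the run B chow mesentery library, 0.0065 at resolution 2.0, 0.42 in cluster 3 alone), diet in adipose (-0.14 without the run A high fat library) and the difference in response (0.82 without the run B chow mesentery library). The cause was not tested. Depth limited Lmf1 everywhere and each member in the run A capillary-like cells.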
